A study of Mus musculus with 16 samples.

Results

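The 128 genes described here lie on mouse chromosome 14 around Msra, one of the genes knocked out in these animals. They are the protein-coding genes with a start between 60 Mb and 80 Mb on GRCm38 and 10 or more counts in at least 4 of the 16 libraries. Msra itself, Gata4, Fdft1 and Egr3 were set aside by name, and 43 other genes of the interval stayed under the count minimum. The table held 48709 gene identifiers in all, of which 14709 were protein-coding genes that met the same minimum. The members were chosen by a rule on position and counts that did not use genotype. A gene with few counts could still pass the minimum through a single genotype. The interval was also proposed with genotype differences of these data already known.

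RNA was sequenced from the heart and liver of 8 female mice on the strain C57BL/6J, 3 to 6 months old and untreated. In the Msr quadruple knockout mice (QKO, n = 4) the genes Msra, Msrb1, Msrb2 and Msrb3 were knocked out, and in wild type mice (WT, n = 4) none was. The groups were thus QKO hearts, WT hearts, QKO livers and WT livers, with 4 libraries each, and both tissues came from the same animals. How the targeted alleles were made, and in which strain, is not given in the sources used here.

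The Msr enzymes, methionine sulfoxide reductases, repair methionine residues that have been oxidised in proteins. Msra acts on the S form of the sulfoxide and the Msrb enzymes on the R form. Genes that lie close together on a chromosome are inherited together, so a mouse bred to carry a targeted allele also carries the stretch of chromosome around it. In QKO animals the loss of the 4 enzymes and the sequence of this stretch go together, and these cannot be told apart here. The interval itself has no common function: its genes serve mitochondria, leukocytes, transcription, membrane traffic and metabolism.

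The depth of the libraries lay between 42.1 M and 72.6 M counts for hearts, and for livers between 37.9 M and 67.9 M. Coding genes held 9.21 M to 28.2 M counts per heart and 21.6 M to 40.7 M per liver. In heart ribosomal RNA loci took 31.3% to 56.8% in 6 libraries, 0.139% in QKO heart 4 and 7.20% in WT heart 4. Transcripts of pancreatic acinar cells stood at 1236 CPM in WT liver 3 and 361 CPM in WT liver 4, and skeletal muscle transcripts at 324 CPM in WT liver 4. CPM is the count per M counts of the library, for marker lists on the protein-coding total and for single genes on TMM-scaled totals. Cardiomyocyte transcripts reached 51070 to 59160 CPM in QKO hearts and 40850 to 51910 CPM in WT hearts. Hepatocyte transcripts reached 79920 to 100900 CPM in QKO livers and 76090 to 90120 CPM in WT livers. As a check of the labels, Msrb2 kept 1.25% of the WT level in QKO hearts and 0.657% in QKO livers, and Msrb3 kept 16.3% in QKO hearts and 25.1% in QKO livers. Msra RNA kept 69.3% in QKO hearts and 60.7% in QKO livers, and Msrb1 stood at 139% in hearts and 76.4% in livers, so whole-gene counts of Msra and Msrb1 do not show the knockout by themselves. Nothing said whether same-numbered animals shared a litter, and p-values measure the spread between these 8 animals.

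Among 115 members tested in heart, 9 were lower in QKO and none was higher past the threshold, an adjusted p of 0.05 over all genes tested. Described here are 8 of them, Ptk2b, Slc25a37, Piwil2, Fndc3a, Sucla2, Esd, Lcp1 and Vwa8. Log2 fold changes of QKO over WT ran from -0.40 for Sucla2 to -3.81 for Piwil2. Piwil2 met the count minimum in WT libraries alone. Of all 16974 genes tested in heart 0.165% were called, 0.0943% lower and 0.0707% higher. Of the 28 genes called in heart, 9 were members, 4 were the targeted Msr genes and 15 lay elsewhere. In bulk tissue, fewer cells of a type and less RNA per cell cannot be told apart.

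Promoter sequences are shown for the called members that have an entry in the RefSeq table of GRCm38.p6, and for Lrch1, the member that lay higher in QKO without overlap in both tissues. Each window runs from 250 bases before to 50 bases after the annotated start, 5′ to 3′ on the strand of the gene. Capitals mark the GC box, GGGCGG or its reverse complement CCGCCC, searched on both strands. The positions are chr14:74732047-74732346 (plus strand) for Esd, chr14:75130873-75131172 (plus) for Lcp1 and chr14:73552536-73552835 (plus) for Sucla2. They are chr14:78848928-78849227 (plus) for Vwa8 and chr14:74947828-74948127 (minus) for Lrch1.
Esd: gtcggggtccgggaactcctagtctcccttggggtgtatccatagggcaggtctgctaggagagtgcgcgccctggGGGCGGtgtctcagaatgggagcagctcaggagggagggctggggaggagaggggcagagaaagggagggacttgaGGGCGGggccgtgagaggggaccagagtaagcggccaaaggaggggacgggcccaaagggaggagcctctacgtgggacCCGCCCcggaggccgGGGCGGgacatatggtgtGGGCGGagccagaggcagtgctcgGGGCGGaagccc
Lcp1: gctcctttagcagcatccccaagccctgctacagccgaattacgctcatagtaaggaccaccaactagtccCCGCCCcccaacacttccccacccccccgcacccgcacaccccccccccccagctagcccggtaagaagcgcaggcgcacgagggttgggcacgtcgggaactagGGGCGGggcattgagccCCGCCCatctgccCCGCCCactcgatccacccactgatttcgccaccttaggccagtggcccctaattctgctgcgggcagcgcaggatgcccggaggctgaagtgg
Sucla2: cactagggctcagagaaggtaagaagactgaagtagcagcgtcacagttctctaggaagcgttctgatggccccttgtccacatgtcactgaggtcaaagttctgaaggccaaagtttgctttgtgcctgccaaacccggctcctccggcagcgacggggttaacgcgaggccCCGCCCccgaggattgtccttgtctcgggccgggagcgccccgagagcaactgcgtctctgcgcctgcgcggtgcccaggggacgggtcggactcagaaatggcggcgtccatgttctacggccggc
Vwa8: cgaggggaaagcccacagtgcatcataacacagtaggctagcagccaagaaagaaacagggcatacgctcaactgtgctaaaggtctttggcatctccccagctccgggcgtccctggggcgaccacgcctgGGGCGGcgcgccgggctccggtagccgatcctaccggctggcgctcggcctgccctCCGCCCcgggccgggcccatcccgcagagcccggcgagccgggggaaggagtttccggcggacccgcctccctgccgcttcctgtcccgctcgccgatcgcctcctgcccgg
Lrch1: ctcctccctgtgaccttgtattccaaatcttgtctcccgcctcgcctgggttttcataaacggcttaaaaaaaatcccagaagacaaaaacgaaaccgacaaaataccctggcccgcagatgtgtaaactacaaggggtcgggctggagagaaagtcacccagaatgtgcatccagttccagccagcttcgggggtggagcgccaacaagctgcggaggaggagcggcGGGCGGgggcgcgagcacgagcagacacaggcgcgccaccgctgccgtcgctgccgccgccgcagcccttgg

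The motif occurred 6 times in the window of Esd, 4 times in that of Lcp1, 2 times in that of Vwa8 and once each in those of Sucla2 and Lrch1. Of the members, 54 had a window, and 31 of these, or 57.4%, held the motif. Over the 32851 windows of the table the share was 35.7%. Member windows had a median G and C content of 60%, against 52.7% over all windows. For members only the window nearest the gene start was taken, whereas the values over all windows take every entry. The latter were not limited to protein-coding genes or by counts, so the sets are unlike. The window of Sucla2 lies 27467 bases from the start of the gene in GENCODE M21. A match of these letters is a description and not a binding site.

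Mitochondrial genes made up 3 of the 9. The mitochondrion list given below, which also holds Ebpl, had 8 of the 115 members tested in heart. Sucla2 encodes the ADP-forming beta subunit of succinyl-CoA synthetase, an enzyme of the citric acid cycle (ENSMUSG00000022110.13, 73525319 to 73596142, plus strand). It had 92.7, 95.3, 84.4 and 89.6 CPM in QKO hearts 1 to 4, against 115.0, 121.9, 126.4 and 114.4 CPM in WT hearts 1 to 4. Every QKO heart was below every WT heart. The means were 90.5 ± 4.69 CPM in QKO and 119.4 ± 5.76 CPM in WT (SD, n = 4), a log2 fold change of -0.40 (SE 0.07, adjusted p = 0.0288).

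Vwa8, an ATPase of the mitochondrial matrix, spans 78849052 to 79202310 on the plus strand (ENSMUSG00000058997.8). It stood at 51.4, 55.1, 54.2 and 51.5 CPM in QKO hearts, against 71.5, 73.7, 73.2 and 66.9 CPM in WT hearts. The QKO range was narrow and wholly below that of WT, with a log2 fold change of -0.43 (SE 0.06, adjusted p = 0.00855). Slc25a37 encodes mitoferrin, the carrier that brings iron into mitochondria, above all in red cell precursors (ENSMUSG00000034248.7, 69241848 to 69285112, minus strand). QKO hearts held 2.96, 2.76, 2.46 and 2.25 CPM of it and WT hearts 4.16, 3.84, 4.23 and 4.52 CPM. The groups did not overlap, and the log2 fold change was -0.70 (SE 0.12, adjusted p = 0.0263). Red cell markers summed to 796 to 1039 CPM in QKO hearts and 577 to 1207 CPM in WT hearts, with 4 of 7 genes below 0 and none called, and their part in the result was not tested.

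Lcp1 and Ptk2b are best known from leukocytes. Lcp1, or L-plastin, bundles actin in leukocytes (ENSMUSG00000021998.16, 75131101 to 75230842, plus strand). It had 4.75, 3.71, 4.84 and 3.87 CPM in QKO hearts, against 7.53, 7.35, 7.26 and 8.15 CPM in WT hearts. The highest QKO heart lay well below the lowest WT heart, and the log2 fold change was -0.83 (SE 0.10, adjusted p = 0.00245). Ptk2b, the calcium-responsive tyrosine kinase PYK2, spans 66153257 to 66281052 on the minus strand (ENSMUSG00000059456.13). It had 0.766, 0.633, 1.17 and 0.827 CPM in QKO hearts, against 1.71, 1.85, 1.79 and 1.91 CPM in WT hearts. The mean in QKO hearts was 46.9% of that in WT hearts, without overlap (log2 -1.09, SE 0.19, adjusted p = 0.0355).

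Leukocyte markers also lay mostly lower in QKO hearts. Of 11 marker genes 10 lay below 0, with a median log2 fold change of -0.33, and 5 had an unadjusted p under 0.05 while 0 were called by edgeR over all genes. Their sum was 131 to 162 CPM in QKO hearts and 143 to 237 CPM in WT hearts, and no marker was at 0. Their part in the results for Lcp1, Ptk2b and Epsti1 was not tested.

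Piwil2, an Argonaute protein that binds piRNAs in the male germ line, was the called member with the lowest counts (ENSMUSG00000033644.5, 70372477 to 70429383, minus strand). QKO hearts 1 to 4 had 0, 1, 1 and 3 counts, against 17, 10, 12 and 33 counts in WT hearts 1 to 4. That is 0.0165 ± 0.0113 CPM in QKO and 0.296 ± 0.0154 CPM in WT, or 5.56% of the WT level. The fitted log2 fold change of -3.81 (SE 0.49, adjusted p = 0.00307) depends on the prior count of the fit at such low counts. Piwil2 met the count minimum in 5 libraries, all of them WT, so it could enter the set only through the group in which it was high. In liver it was not tested, with 10 counts in QKO and 28 in WT, of which 16 lay in WT liver 1.

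Fndc3a, a fibronectin type III protein that mouse spermatids need to stay attached to Sertoli cells, spans 72537946 to 72710003 on the minus strand (ENSMUSG00000033487.14). It had 6.13, 6.35, 6.85 and 5.94 CPM in QKO hearts, against 9.98, 9.50, 10.3 and 8.21 CPM in WT hearts. The QKO mean was 66.5% of the WT mean, and the groups did not overlap (log2 -0.58, SE 0.09, adjusted p = 0.0157).

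Esd, a serine hydrolase that releases glutathione from S-formylglutathione in formaldehyde breakdown, spans 74732297 to 74750765 on the plus strand (ENSMUSG00000021996.16). It had 12.97, 13.2, 12.6 and 13.2 CPM in QKO hearts, against 17.5, 19.6, 15.6 and 19.6 CPM in WT hearts. All QKO hearts lay below all WT hearts (log2 -0.48, SE 0.08, adjusted p = 0.0242).

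**Figure D1:**
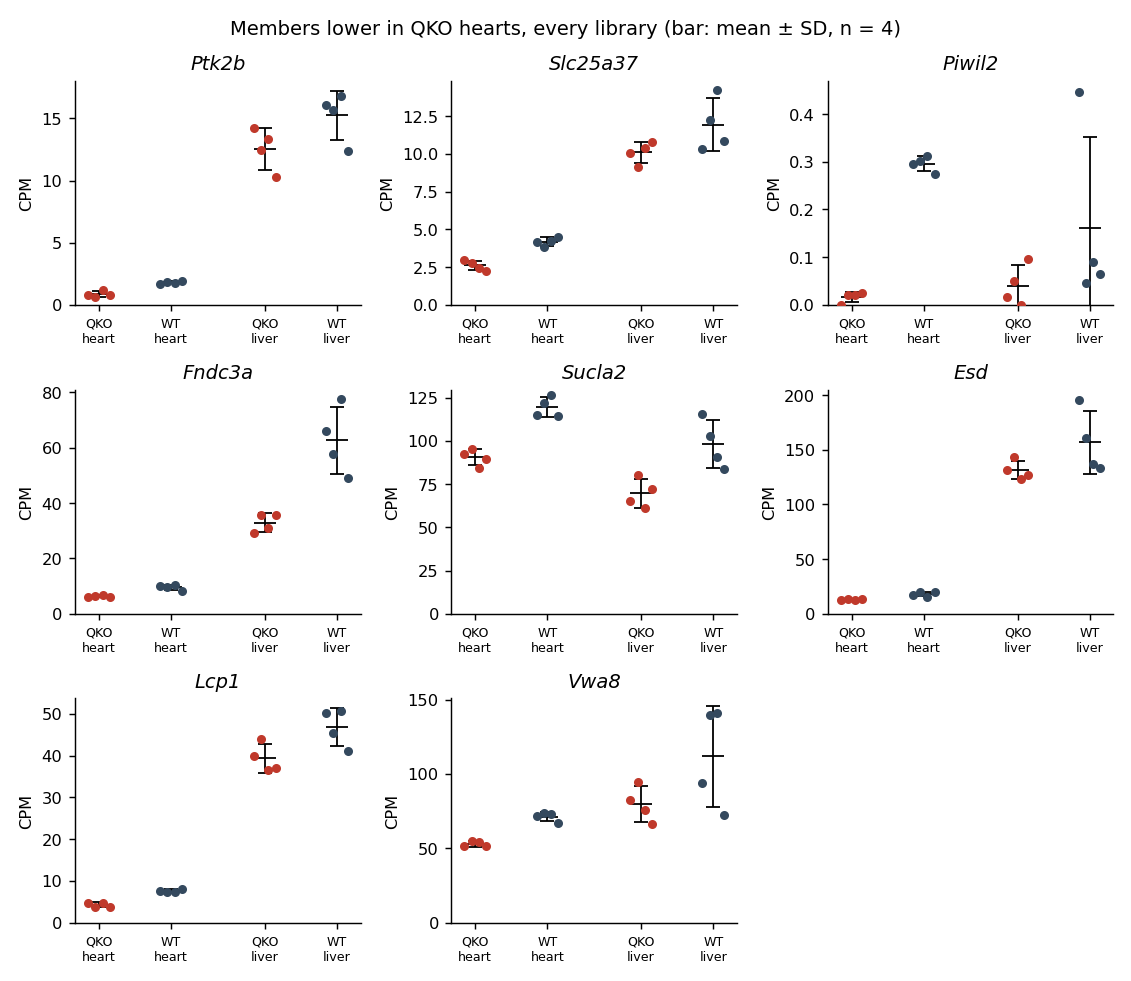
CPM (linear axis) of 8 members called in heart, in QKO and WT hearts and QKO and WT livers; each point is 1 library and bars give mean ± SD (n = 4). QKO hearts lie below WT hearts without overlap in every panel, from 90.5 against 119.4 CPM on average for Sucla2 to 0.0165 against 0.296 CPM for Piwil2.

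Lcp1 and Vwa8 kept their calls when any 1 heart library was left out, with adjusted p of at most 0.0128 and 0.0478. Piwil2 kept its call too (adjusted p at most 0.0238), at the low counts given above, but DESeq2 did not call it. It met the count minimum in WT libraries alone, so these fits are not independent of how it entered the set. The call of Sucla2 held in 1 of the 8 such fits, the fit without WT 4, and elsewhere the adjusted p rose as far as 0.132. Esd stayed called in the fit without WT 3 alone (adjusted p at most 0.117), Ptk2b in that without QKO 3 (at most 0.1335) and Slc25a37 in that without QKO 1 (at most 0.118). Fndc3a was called without WT 4 or without QKO 3, and not without any other library (up to 0.0772). Without both hearts of replicate 4, the libraries low in ribosomal RNA, 5 members were called, among them Lcp1, Fndc3a, Piwil2 and Vwa8. The animal numbers fall in a 47 series and a 48 series with 2 animals per genotype in each. Within the 47 series 8 members were called, 6 of them among the 9, and within the 48 series 3 were called, 2 of them among the 9. When all 16 libraries shared 1 fit, 3 of the 9 remained called: Lcp1, Ptk2b and Slc25a37.

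An unadjusted p under 0.05 was found for 36 of the 115 members in heart, 26 lower and 10 higher, or 31.3%. Over all genes tested the share was 7.19%, with 3.99% lower and 3.19% higher. In 22 members QKO and WT hearts did not overlap, 15 lower and 7 higher, against 4.67% of all genes, 2.4% lower and 2.27% higher. The median log2 fold change of the members was -0.08 and that of all genes -0.001. Hairless, or Hr, a nuclear receptor corepressor known from hair growth, came nearest to a call in the higher direction. It had 6.56, 7.24, 7.84 and 7.41 CPM in QKO hearts and 5.23, 3.99, 5.65 and 4.23 CPM in WT hearts. Those ranges did not overlap, but the log2 value of 0.61 (SE 0.11) had an adjusted p of 0.0625. Hr was called by DESeq2 (adjusted p = 0.000614) and by limma-voom (0.0417).

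Dnajc15, a cochaperone of the mitochondrial inner membrane, had 18.7, 21.8, 22.3 and 25.3 CPM in QKO hearts and 16.4, 15.97, 17.9 and 16.6 CPM in WT hearts. The groups did not overlap (log2 0.40, SE 0.09, adjusted p = 0.128), and DESeq2 gave an adjusted p of 0.0102. Bnip3l, a receptor that marks mitochondria for autophagy, had 11.8, 12.7, 11.9 and 11.2 CPM in QKO hearts and 13.97, 15.03, 16.02 and 14.99 CPM in WT hearts. It lay lower without overlap (log2 -0.34, SE 0.07, adjusted p = 0.105) and was called by DESeq2 (0.0149). Scara3, a class A scavenger receptor, averaged 0.614 ± 0.102 CPM in QKO hearts and 1.14 ± 0.244 CPM in WT hearts (SD, n = 4), a log2 value of -0.90 (adjusted p = 0.272). Among the higher ones, Bin3, a BAR domain protein, had a log2 value of 0.46 (unadjusted p = 0.0252), and Ebpl, a relative of the sterol isomerase Ebp, had 0.44 (0.0349). Bin3 overlaps Ccar2 on the opposite strand.

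In liver, 0 of the 120 members tested were called by edgeR, where 0.0846% of all 17738 genes were, 0.0282% lower and 0.0564% higher. An unadjusted p under 0.05 was found for 18 members, 10 lower and 8 higher, or 15% (3.29% of all genes; 1.7% lower, 1.58% higher). DESeq2 called 5 members, Slc25a30 and Tnfrsf10b higher and Fndc3a, Epsti1 and Gm16867 lower, and limma-voom called 0. QKO and WT livers did not overlap in 16 members, 9 lower and 7 higher, against 2.11% of all genes, 1.14% lower and 0.964% higher. The median log2 fold change was -0.035 over the members and -0.006 over all genes.

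Fndc3a had the smallest liver p of all members. It stood at 29.1, 35.9, 30.9 and 35.8 CPM in QKO livers, against 66.2, 57.9, 77.4 and 49.2 CPM in WT livers. No QKO liver reached the lowest WT liver, and the mean was 52.5% of that in WT (log2 -0.93, SE 0.16, adjusted p = 0.0861). Without WT liver 4 the adjusted p was 0.0276, while over all leave-out fits it reached up to 0.391. When both WT livers with acinar transcripts were left out, the log2 value was -0.91 (adjusted p = 0.133). Fndc3a overlaps Gm16549 on the opposite strand.

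Slc25a30, a mitochondrial carrier, had 12.4, 19.98, 20.3 and 34.9 CPM in QKO livers, against 6.14, 7.12, 7.83 and 8.73 CPM in WT livers. Its QKO values spread widely, but the lowest of them lay above the highest WT value. The mean was 294% of that in WT (log2 1.55, SE 0.27, adjusted p = 0.0861). Without QKO liver 1, the lowest of its group, the adjusted p was 0.0175 and over all leave-out fits it reached up to 0.324. Tnfrsf10b, a death receptor for TRAIL, had 0.672, 0.830, 0.563 and 0.750 CPM in QKO livers, against 0.251, 0.134, 0.120 and 0.191 CPM in WT livers. This was 161 counts over the QKO livers and 35 over the WT livers, without overlap (log2 2.06, SE 0.36, adjusted p = 0.0922).

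Chmp7, which helps the ESCRT machinery seal the nuclear envelope, had 41.2, 39.4, 60.1 and 38.4 CPM in QKO livers and 18.2, 23.0, 23.8 and 35.2 CPM in WT livers. The lowest QKO value was close to the highest WT value, and the log2 fold change was 0.84 (SE 0.21, adjusted p = 0.666). Epsti1, an interferon-induced gene, had 1.20, 1.71, 1.42 and 1.71 CPM in QKO livers and 3.26, 2.37, 3.13 and 3.56 CPM in WT livers. QKO livers were all lower (log2 -1.02, SE 0.21, adjusted p = 0.244). Leukocyte markers summed to 261 to 399 CPM in QKO livers and 256 to 381 CPM in WT livers, and 5 of 11 lay below 0.

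Among the other members without overlap in liver were Ppp3cc, the catalytic gamma subunit of calcineurin (log2 -0.71, unadjusted p = 0.00749), and Nudt18, which hydrolyses oxidised nucleotides (0.45, 0.0231). Gfra2, the coreceptor of neurturin, lay higher (1.35, 0.0184), as did Polr3d, a subunit of RNA polymerase III (0.44, 0.0292). None of these 4 was called.

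**Figure D2:**
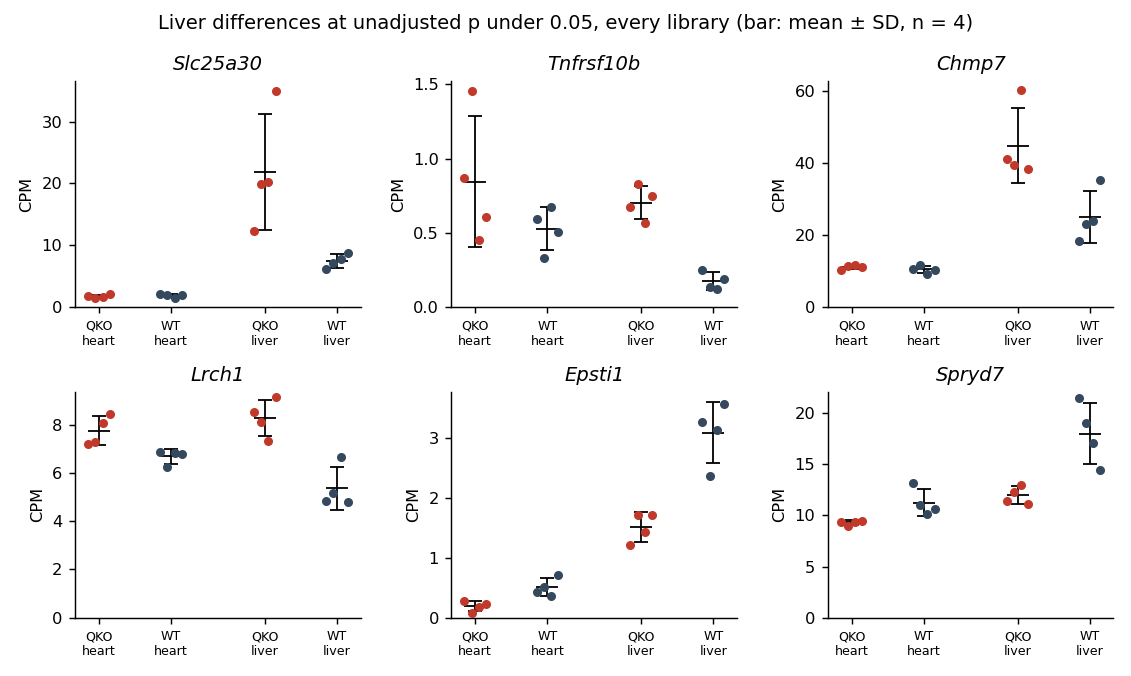
CPM (linear axis) of 6 members with an unadjusted p under 0.05 in liver, in QKO and WT hearts and QKO and WT livers; each point is 1 library and bars give mean ± SD (n = 4). Slc25a30, Tnfrsf10b, Chmp7 and Lrch1 lie higher and Epsti1 and Spryd7 lower in QKO livers without overlap, and none passed the threshold in liver.

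Members were then set side by side in both tissues, whose libraries came from the same animals. Of the 9 members called in heart 8 were tested in liver, where all 8 had values below 0. Of these, Fndc3a, Sucla2 and Vwa8 had an unadjusted p under 0.05 in liver. Sucla2 had 64.99, 80.1, 61.1 and 72.0 CPM in QKO livers, against 115.6, 102.5, 90.9 and 83.5 CPM in WT livers, without overlap (log2 -0.50, unadjusted p = 0.00549). For Lcp1, Ptk2b, Slc25a37 and Esd the liver ranges overlapped, with log2 values of -0.25, -0.28, -0.24 and -0.26. All 7 red cell markers tested lay below 0 in liver (median log2 -0.71), 4 with an unadjusted p under 0.05 and 0 called. They summed to 250 to 317 CPM in QKO livers and 260 to 618 CPM in WT livers. Their part in the liver value of Slc25a37 was not tested.

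The groups did not overlap in both tissues and in the same direction for 7 members, and for none in opposite directions. Over the 15436 genes tested in both tissues, 40 did so in the same direction, which is 0.259%, and 6 in opposite directions. Spryd7, Gm16867, Xpo7, Fndc3a, Sucla2 and Epsti1 were the lower ones, and Lrch1 was the higher one. Gm16867 overlaps Entpd4 on the opposite strand, so its counts are uncertain.

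Lrch1, a protein with leucine-rich repeats and a calponin homology domain, was the higher one of these. It had 8.52, 8.12, 7.32 and 9.13 CPM in QKO livers, against 4.83, 5.17, 6.68 and 4.79 CPM in WT livers (log2 0.62, SE 0.16, adjusted p = 0.666). In QKO hearts it had 7.20, 7.30, 8.06 and 8.42 CPM, against 6.88, 6.23, 6.84 and 6.79 CPM in WT hearts (log2 0.21, adjusted p = 0.660). Its separation in heart was small beside that in liver, though neither passed the threshold when the tissues were fitted separately. In 1 fit of all 16 libraries its liver value was called (log2 0.63, adjusted p = 0.0265). Its heart effect minus liver effect was -0.42 (SE 0.17, unadjusted p = 0.0213) and was not called.

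Spryd7 had 11.4, 12.3, 13.01 and 11.1 CPM in QKO livers, against 21.5, 19.0, 17.1 and 14.4 CPM in WT livers (log2 -0.59, adjusted p = 0.617). In QKO hearts it had 9.39, 8.97, 9.39 and 9.48 CPM, against 13.2, 11.01, 10.1 and 10.7 CPM in WT hearts (log2 -0.27, adjusted p = 0.503). It was lower in all QKO libraries of either tissue. Xpo7, a nuclear export receptor, had log2 values of -0.22 in heart and -0.43 in liver, and it overlaps Dok2 and Npm2. Epsti1 in heart was low throughout, with 52 counts over the QKO hearts and 142 over the WT hearts (log2 -1.40, adjusted p = 0.326).

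Whether the genotype effect differed between heart and liver was tested as an interaction. The edgeR and DESeq2 fits held no term for the animal, although both tissues came from the same animals. By edgeR 0 of the 128 members were called, where 0.00511% of all 19587 genes were, and 16 had an unadjusted p under 0.05, 12 lower and 4 higher. Over all genes that share was 4%, with 1.79% lower and 2.21% higher. DESeq2 called 2 members, Phyhip and Slc25a30. With the animal as block, edgeR called 0. Amer2 and Nkx2-6 had 0 counts in all hearts, so the test says nothing about them. Slc25a30 had 1.84, 1.54, 1.56 and 2.09 CPM in QKO hearts, against 2.18, 2.00, 1.504 and 1.93 CPM in WT hearts, where the groups overlapped. Its heart effect minus liver effect was -1.67 (SE 0.34, adjusted p = 0.344). For Lcp1 that difference was -0.58 (SE 0.16) and for Ptk2b -0.82 (SE 0.23), each with an adjusted p of 1.00.

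By position, the 8 called members described above lay after Msra, from Ptk2b at 1.70 Mb to Vwa8 at 14.4 Mb. Of all members tested in heart, 1 of 24 was called on the side with lower coordinates and 8 of 91 on the other side. Over all genes 0.165% were called. On the side with lower coordinates 7 of 24 members had an unadjusted p under 0.05 in heart and 2 of 29 in liver. On the other side it was 29 of 91 in heart and 16 of 91 in liver. Of the 5 members nearest to Msra on each side none was called in either tissue, and Fam167a was not tested in heart. In the order of the chromosome, Fam167a, Mtmr9, Xkr6, Pinx1 and Sox7 lie just before Msra, and Kif13b, Hmbox1, Ints9, Extl3 and Fzd3 just after it.

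Sox7, a transcription factor of endothelium, lies 0.172 Mb from Msra and had a log2 value of -0.26 in heart (unadjusted p = 0.0390) and 0.18 in liver. Kif13b, a kinesin, lies 0.191 Mb away and had 0.19 in heart (unadjusted p = 0.0355) and -0.07 in liver. Xkr6 had 0.82 in heart (unadjusted p = 0.0309) and -0.06 in liver. Its heart value was 1.645 within the 47 series and 0.155 within the 48 series, called in neither. Among the other 7, Mtmr9, a myotubularin without phosphatase activity, Pinx1, an inhibitor of telomerase, Hmbox1, a homeobox protein, Ints9, a subunit of Integrator, Extl3, a glycosyltransferase of heparan sulfate, and Fzd3, a Wnt receptor, had unadjusted p over 0.05 in both tissues. Fam167a had too few counts to be tested in heart, with 11 over the QKO hearts and 47 over the WT hearts, 20.8% of the WT level in CPM and without overlap. In liver it had -0.23 (unadjusted p = 0.572), and its heart effect minus liver effect was -1.99 (SE 0.72, unadjusted p = 0.0133, adjusted p = 1.00).

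Bins of 5 Mb gave 8 of 27, 9 of 31, 12 of 30 and 7 of 27 members with an unadjusted p under 0.05 in heart, from 60 Mb to 80 Mb. All 9 in the bin from 65 Mb were lower. In liver the same bins gave 2 of 32, 3 of 34, 10 of 28 and 3 of 26. The 10 Mb before the interval, 50 Mb to 60 Mb, held 19 of 111 protein-coding genes at that level in heart, or 17.1%, and 12 of 112 in liver, or 10.7%. Myh7, the slow cardiac myosin heavy chain, was the called gene there in heart (log2 2.24), beside the overlapping RNAs Mhrt and Gm29015. In liver Cebpe, a transcription factor of granulocytes, was called there (log2 -7.74, adjusted p = 0.00238), as was the microRNA gene Mir686 (-1.07, 0.0128). The chromosome outside the interval gave 38 of 337 genes in heart and 16 of 342 in liver.

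The same counts were made around the other targeted genes, over protein-coding genes within 10 Mb of each. Those windows reach equally far to both sides, whereas Msra, at 64.12 Mb, does not lie in the middle of the members' interval. Around Msrb1 on chromosome 17 it was 15 of 267 genes in heart, with 1 called (C4b), and 7 of 276 in liver. Around Msrb2 on chromosome 2 it was 8 of 133 and 3 of 135, and around Msrb3 on chromosome 10 it was 10 of 138 and 5 of 142. The shares of the members, 31.3% and 15%, stood above each of these, a description without a test of the interval. The members' interval was proposed with genotype differences of these data already known.

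**Figure D3:**
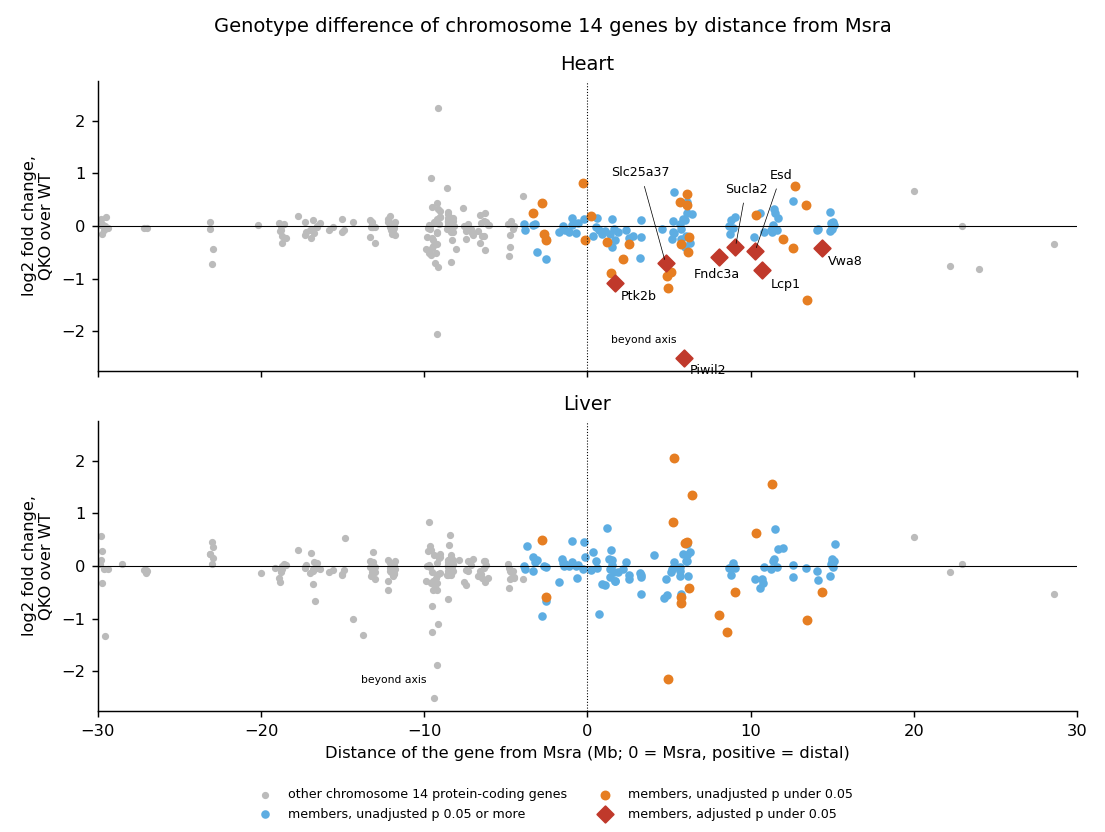
Log2 fold change of QKO over WT (vertical axis; Piwil2 in heart and Cebpe in liver lie beyond 2.5 and are drawn at the edge) of protein-coding genes on chromosome 14 against distance from Msra in Mb; grey points are genes outside the set, colours mark members by p. In heart (upper panel) the 8 called members shown lie below 0 and reach from Ptk2b at 1.70 Mb to Vwa8 at 14.4 Mb after Msra, and in liver (lower panel) none was called.

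**Figure D4:**
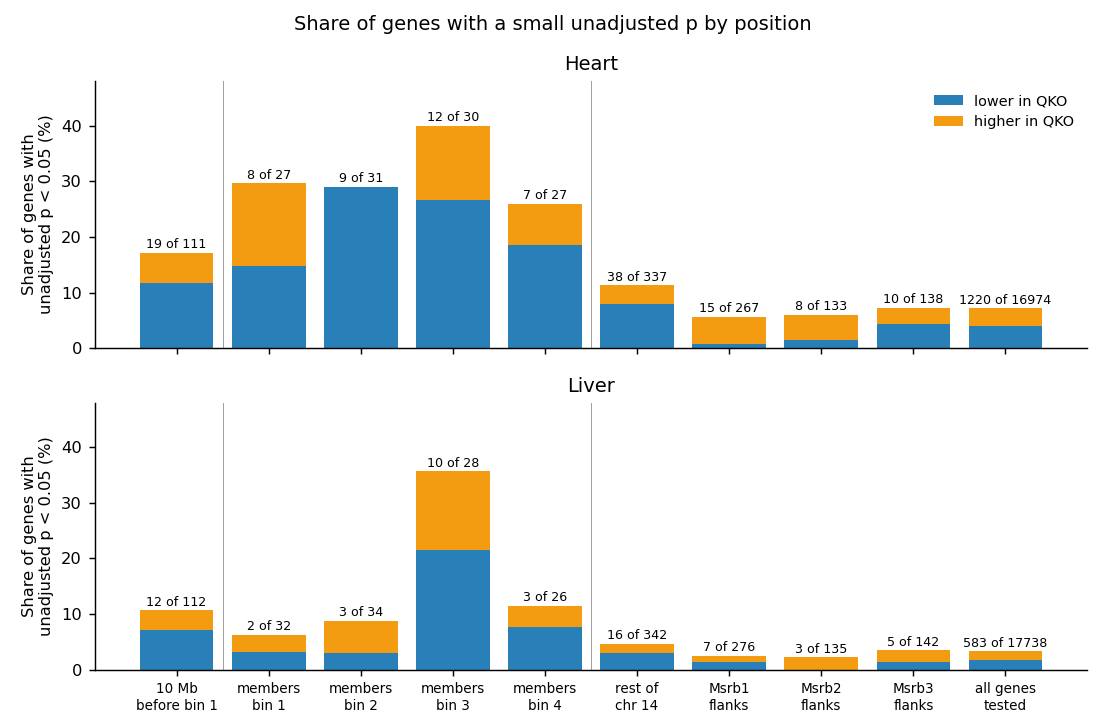
Share of tested genes with an unadjusted p under 0.05 (vertical axis, %), lower or higher in QKO, in heart and liver; members bins 1 to 4 are the 5 Mb bins from 60 Mb to 80 Mb, and the numbers give genes over genes tested. The share was highest in bin 3 in both tissues, 12 of 30 in heart and 10 of 28 in liver, against 1220 of 16974 and 583 of 17738 over all genes.

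Role lists from general knowledge give another view of the members. Over all 115 members tested in heart 7.83% were called and 31.3% had an unadjusted p under 0.05, and over all genes 0.165% and 7.19%. The mitochondrion list had 8 members, with 3 called lower in heart (Sucla2, Slc25a37 and Vwa8), 6 with an unadjusted p under 0.05 and 4 below 0. Among the 6 is Ebpl (unadjusted p = 0.0349), a relative of the sterol isomerase Ebp whose place in mitochondria is not shown here. The list leaves out the mitochondrial carrier Slc25a30 (unadjusted p = 0.512 in heart). Of the leukocyte list 9 were tested in heart, of which 5 lay below 0, 3 had an unadjusted p under 0.05 and 2 were called lower (Lcp1 and Ptk2b). Membrane traffic and lipid had 1 of 12 called lower (Fndc3a) and metabolism 1 of 7 (Esd), a single gene in each list. Below 0 in heart were 7 of those 12 and 4 of those 7. Of 15 transcription and RNA processing genes and 10 secreted or matrix genes tested in heart none was called, though 2 and 3 had an unadjusted p under 0.05. No list had a called member in liver.

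Examples with the smallest p in these lists had the following values. Tsc22d1, a leucine zipper protein, had log2 values of -0.25 in heart (unadjusted p = 0.0380) and 0.34 in liver (0.0845). Within the 47 series its heart value was called (-0.50, adjusted p = 0.0081), against -0.01 within the 48 series. Scara5, a receptor for ferritin, had -0.31 in heart (unadjusted p = 0.0281). It too was called within the 47 series (-0.63, adjusted p = 0.0390), against -0.05 within the 48 series. Adra1a, the alpha-1A adrenergic receptor, which heart muscle uses, had 8.63, 6.31, 3.02 and 3.88 CPM in QKO hearts and 8.31, 7.41, 9.28 and 8.15 CPM in WT hearts. QKO hearts 3 and 4 were low and QKO heart 1 lay within the WT range (log2 -0.63, SE 0.24, adjusted p = 0.660). Hearts 3 and 4 are the 48 series, within which Adra1a was called (log2 -1.30, adjusted p = 0.00427), against -0.08 within the 47 series (adjusted p = 0.932).

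Of the most abundant members per length of exon, Sucla2 alone was called, in heart. In heart these were Tpt1, a calcium-binding growth protein, at 65.3 CPM per kb over both genotypes, Itm2b, a membrane protein, at 39.2, Sucla2 at 26.3, Ephx2, the soluble epoxide hydrolase, at 24.9, and Clu, the secreted chaperone clusterin, at 24.7. In liver they were Itm2b at 188, Gulo, the last enzyme of vitamin C synthesis, at 183, Ephx2 at 160, Tpt1 at 154 and Clu at 136 CPM per kb. Clu had 422, 534, 446 and 474 CPM in QKO livers and 506, 452, 440 and 461 CPM in WT livers, which overlapped. Log2 values of Tpt1, Itm2b, Ephx2, Clu and Gulo in liver lay between -0.11 and 0.11.

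At the edges of the interval, Nupl1 and Mtmr6 were the first members and Sugt1 and Cnmd the last. Their log2 values were 0.03, -0.09 and 0.01 in heart for those tested, and 0.00, -0.05, 0.09 and 0.43 in liver. Just outside, Atp8a2 had 0.57 in heart and -0.25 in liver, Shisa2 -0.22 in liver, Pcdh17 0.67 and 0.54, and Diaph3 -0.76 and -0.11. At the count limit the members with the fewest libraries were Piwil2 and Nkx2-6, with 5 each, and the nearest genes left out were Olfm4, Prss55, Nuggc and Kbtbd6, with 2 each. Of the 128 members 107 were tested in both tissues, 8 in heart alone and 13 in liver alone. Another gene overlapped 52 of them, on the opposite strand in 43, and counts of such genes may be shared because the strand setting of the counting is not given in the sources used here.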

How the data were processed

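RNA depleted of ribosomal RNA was made into stranded libraries and read in pairs of 75 bp, per the labels' protocols. The submitters' processing notes list HISAT2, featureCounts, cutadapt and FastQC, further CASAVA, bcl2fastq and limma, and the build mm10. Versions, the annotation release and the strand setting are not given in the sources used here. The authors deposited raw counts per gene, whole numbers for 48709 identifiers in 16 libraries.

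Symbols and positions came from GENCODE M21 (GRCm38, the same assembly as mm10), which matched 48349 identifiers; 360 did not match. Hearts and livers were fitted separately in edgeR 4.0.16 (R 4.3.3), using its quasi-likelihood test on counts after TMM scaling and the edgeR filter by group. The tissue difference was the interaction in a fit of 16 libraries, without a term for the animal. Benjamini-Hochberg adjustment ran over all genes tested, with a threshold of 0.05. Each SE came from the log2 fold change and the F value, as their ratio after a square root of F. The fits were tested on simulated data. No replicate was a copy of another.

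Alternatives were DESeq2 1.42.0, limma-voom (limma 3.58.1), RLE scaling, other filters, a replicate block, an animal series term, 1 fit of all libraries and fits without libraries. The members and the gene lists were chosen with earlier results of these data known. Named were called members, per tissue the 5 smallest p in each direction without overlap at 1 CPM or more, the 5 nearest to Msra on each side, the most abundant, those at the limits, and up to 2 examples per list. Bnip3l, Phyhip, Gm16867, Amer2, the overlapping genes and the called genes outside the set were named after their values were seen. Promoters came from RefSeq (GRCm38.p6); proteins were not used here. A few members are counted in the totals but not reported here.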

Additional observations from a re-analysis of the deposited data

Results flagged for a closer look

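In 180 groups of 4 libraries of the named members, 12 held a library far from the other 3, where chance gives about 1 in 20. In QKO livers, replicate 3 was high for Chmp7 (60.1 CPM, others 38.4 to 41.2), Tpt1 (427.5, others 358.9 to 365.2), Tsc22d1 (43.1, others 29.0 to 31.1) and Dnajc15 (24.2, others 17.1 to 18.1). The same library was low for Scara3 (0.537 CPM, others 2.28 to 2.46). QKO liver 1 was low for Fam167a (0.516 CPM, others 1.08 to 1.15), and WT liver 4 was low for Ppp3cc (1.74, others 2.25 to 2.26). In heart, QKO 2 was high for Mtmr9 (5.84 CPM, others 4.60 to 4.68) and QKO 1 low for Clu (73.9, others 92.3 to 93.6). WT heart 2 was low for Mtmr9 (4.02 CPM, others 4.91 to 4.95) and Lrch1 (6.23, others 6.79 to 6.88), and WT heart 3 was low for Tsc22d1 (52.9, others 68.4 to 71.0). None of these groups belongs to the 9 members called in heart.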

How the results depend on the processing

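The number of members called in heart, 9 as reported, was 11 by DESeq2, 10 by limma-voom, 9 with RLE scaling, 11 without a filter and 8 with 1 CPM in 4 libraries. It was 3 in 1 fit of all 16 libraries, 5 without both hearts of replicate 4, 3 within animal series 48 and 8 within series 47 (the series fits were chosen after seeing the data). With 1 library left out it ran from 3 to 6. In liver, 0 as reported, it was 5 by DESeq2, 2 without a filter, 1 with the animal series as a term, 7 in 1 fit of all libraries, 0 without WT livers 3 and 4, and 0 to 1 with 1 library left out. For the difference between tissues, 0 as reported, it was 2 by DESeq2, 1 without a filter and 0 to 1 with 1 library left out. Apart from the replicate block, given next, the counts in all other alternatives that were run stayed within 1.5 times those reported. The 11 members called in heart by DESeq2 did not include Piwil2. In liver the 7 called in 1 fit of all libraries were Slc25a30, Phyhip, Tnfrsf10b, Chmp7 and Lrch1 (higher) and Fndc3a and Gm16867 (lower). The cause of these shifts was not tested.

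Same-numbered QKO and WT libraries were correlated at 0.0807, 0.0945, 0.00525 and 0.331 in heart and 0.0460, -0.0507, -0.0687 and 0.121 in liver. QKO hearts 1, 2 and 4 correlated best with the WT heart of their own number, and QKO heart 3 with WT heart 4. QKO livers 2, 3 and 4 correlated best with WT liver 4, and QKO liver 1 with WT liver 2. Both hearts of replicate 4 were low in ribosomal RNA (0.139% in QKO and 7.20% in WT). Same-numbered animals also fell in the same animal series. With the replicate block the counts were 10 in heart, 1 in liver (Slc25a30, adjusted p = 0.0158) and 0 for the difference between tissues with the animal as block.

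Signs turned for uncalled values only. In heart these were Chmp7 (-0.031) and Nudt18 (-0.15) within series 47 and Slc25a30 (0.082) within series 48. In liver they were Bin3 (0.048) and Dnajc15 (0.26) within series 48, and Hr within series 47 (-0.084). With 1 library left out, liver values ran from -0.089 to 0.041 for Bin3, from -0.18 to 0.75 for Hr and from -0.17 to 0.12 for Dnajc15. Depth limits Piwil2, at 5 counts in QKO hearts.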

Other observations

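Phyhip, whose protein binds the peroxisomal enzyme phytanoyl-CoA hydroxylase, was singled out after its values were seen. It had 0.281, 0.249, 0.161 and 0.479 CPM in QKO livers, against 0, 0, 0.0449 and 0.0635 CPM in WT livers, or 69 counts over the QKO livers and 6 over the WT livers. The filter by group kept it out of the liver test. QKO hearts had 3.63, 2.78, 2.01 and 2.01 CPM and WT hearts 3.76, 3.75, 3.27 and 2.80 CPM, which overlapped. Its heart effect minus liver effect was -3.72 (SE 0.64, adjusted p = 0.123 by edgeR and 0.000596 by DESeq2), the smallest p among the members in that test.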
